A study of Rattus norvegicus with 14 samples.

Results

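Platelet-derived growth factors (PDGFs) and their receptors were described in the thoracic aorta of rats with adenine-induced renal failure. The members were chosen by gene symbol. Of the 6 genes Pdgfa, Pdgfb, Pdgfc, Pdgfd, Pdgfra and Pdgfrb, 5 had a probe set with that symbol alone, among 14217 named genes, and Pdgfb was not analysed here. These 5 genes had 7 of the 31042 probe sets tested, 3 of them for Pdgfrb. The tissue came from Sprague-Dawley rats, with 8 samples labelled A-CRF, for chronic renal failure after adenine, and 6 samples labelled Control, each on 1 array. Adenine loading is known to injure the kidney through crystals in the tubules. The dose, the duration, the sex and the age were not given in the sources used here, and the labels do not say whether the samples are separate animals. The p-values therefore only set the group difference against the spread among these samples, and that spread may be technical.

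PDGFs are dimeric ligands that bind a pair of receptor tyrosine kinases, which then phosphorylate each other and recruit signalling proteins of the Ras-MAPK and PI3K-Akt pathways. PDGF-A and PDGF-B chains are trimmed inside the cell by proprotein convertases, whereas PDGF-C and PDGF-D are secreted with an inhibitory CUB domain that plasminogen activators or related proteases remove. In the vessel wall PDGF-B acting on the beta receptor drives recruitment, migration and proliferation of smooth muscle cells and pericytes, and the alpha receptor marks fibroblasts. Whole aorta holds all of these cells, and in such samples fewer cells of a type and less RNA per cell cannot be told apart.

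No PDGF ligand or receptor passed the test of A-CRF against Control when all 14 arrays were used (limma, Benjamini-Hochberg adjusted p under 0.05 over all probe sets), against 2.05% of all probe sets and 2.99% of genes at 1 probe set each. The largest differences were those of Pdgfa, 1.27-fold higher in A-CRF, and Pdgfrb, 1.24-fold higher, both short of the threshold. On 1 of its 3 probe sets Pdgfrb passed without 3 arrays that had a sign of shortened transcripts, or with that sign as a covariate. It was then 1.14-fold and 1.21-fold higher in A-CRF. It did not pass when arrays were weighted by their fit (0.22 log2 units, limma adjusted p = 0.32). Around the ligands, 3 of 6 genes for proteases that process PDGFs rose, among them Plat and Plau, which encode activators of PDGF-C and PDGF-D. The gene lists were chosen with earlier results of these data known.

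Markers of aortic smooth muscle and fibroblasts were present, and a few arrays stood apart in quality. All 10 smooth muscle markers and all 10 measured fibroblast markers exceeded 4.82, the lowest signal of the table, by more than 1 log2 unit in the mean of the Control arrays. On A-CRF 1, A-CRF 4 and Control 1 the control probe sets for the 3' and the 5' end of GAPDH differed by 1.58 to 1.90 log2 units, a sign of shortened transcripts, against 0.37 to 0.55 on the other 11 arrays. On that sign alone they are called the 3 arrays of short transcripts below. Members and pathway calls were also computed without these 3 arrays and with the GAPDH difference as a covariate. Macrophage markers were higher in A-CRF, at 9 of 14 measured (median change 0.42), 8 without the 3 arrays and 10 with the covariate. Their mean was 7.14 to 7.52 on the A-CRF arrays and 6.77 to 6.94 on the Control arrays. Of all probe sets, 1.26% were called higher and 0.789% lower with all arrays. These shares were 1.82% and 1.08% without the 3 arrays, and 1.98% and 1.38% with the covariate. Of 10 smooth muscle markers, 1 fell and 9 did not pass (median -0.20). This was Myh11, smooth muscle myosin, at -0.29 ± 0.07 (SE, limma adjusted p = 0.043), and its call was lost in 10 of the 14 fits without 1 array (highest adjusted p = 0.093). It held when array 4, 7 or 8 of A-CRF or array 3 of Control was dropped. A second, dimmer Myh11 probe set changed by -0.24 and did not pass with all arrays (adjusted p = 0.53). Without the 3 arrays Myh11 did not pass (adjusted p = 0.083) and Tagln, an actin-binding protein of smooth muscle, did (-0.22, adjusted p = 0.047). With the covariate 3 markers fell, Myh11, Tagln and the thin-filament protein Lmod1 (adjusted p of 0.034, 0.022 and 0.049), and over the 14 alternatives that did not drop 1 array Myh11 lost its call in 7. The fibroblast list had no member past the threshold and a mean of 9.80 to 10.03 in A-CRF and 9.59 to 9.79 in Control. The part of these shifts in the results below was not tested.

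The promoters of Pdgfa and Pdgfra are shown because both genes were well above the lowest signal and because Egr1, a transcription factor known to bind the human PDGFA promoter, was called higher with all 14 arrays. That call was lost in 9 of the 14 fits without 1 array, and a link of Egr1 to either gene was not tested. The promoters are RefSeq sequences of build GRCr8, from 250 bases before to 50 after the annotated start, at chr12:20759116-20759415 on the plus strand for Pdgfa and at chr14:33408467-33408766 on the minus strand for Pdgfra. Capitals mark matches to the motifs searched on both strands.
Pdgfa: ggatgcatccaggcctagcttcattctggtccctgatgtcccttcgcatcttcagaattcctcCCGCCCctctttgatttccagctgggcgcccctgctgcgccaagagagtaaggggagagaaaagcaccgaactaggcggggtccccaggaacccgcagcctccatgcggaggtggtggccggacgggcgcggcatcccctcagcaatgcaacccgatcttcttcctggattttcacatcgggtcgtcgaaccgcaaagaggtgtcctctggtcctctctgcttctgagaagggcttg
Pdgfra: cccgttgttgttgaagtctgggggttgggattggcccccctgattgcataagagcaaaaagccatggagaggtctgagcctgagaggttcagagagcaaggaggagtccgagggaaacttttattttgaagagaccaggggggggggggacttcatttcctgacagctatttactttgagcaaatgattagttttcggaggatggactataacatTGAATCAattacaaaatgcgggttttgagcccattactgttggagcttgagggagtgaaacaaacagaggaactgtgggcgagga

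Within these windows Pdgfa held 1 match to the Sp family motif GGGCGG, on the minus strand with its first base at position -187 from the start, and Pdgfra 1 match to the AP-1 motif TGANTCA at position -35. The Sp motif is found in 33.1% of the 33469 promoters of the same length and the AP-1 motif in 7.33%. The Egr family motif GCGNGGGCG (4.98% of promoters) and the CArG box bound by SRF (1.64%) had 0 matches in either window. None of the 4 motifs overlapped another there, and the promoters of Pdgfb and Pdgfd held 1 match each to GGGCGG. Those of Pdgfc held 0 matches to any of the 4. A match is a run of letters and not evidence of binding.

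Among the ligands, Pdgfa, the chain of PDGF-AA, which signals through the alpha receptor, had log2 signals of 8.15 at the lowest, 8.46 at the median and 9.03 at the highest of the 8 A-CRF arrays, and of 8.05, 8.17 and 8.42 on the 6 Control arrays. A-CRF 3 and A-CRF 4 were the highest, at 9.03 and 9.02, and A-CRF 1 was the lowest of its group and the only one below the Control median. The groups overlapped, with 5 of 8 A-CRF arrays above the whole Control range. The A-CRF mean was 8.54 ± 0.33 (SD, n = 8) and the Control mean 8.19 ± 0.14 (SD, n = 6), a difference of 0.35 ± 0.14 log2 units (SE). Its 95% interval was 0.06 to 0.64 and the limma adjusted p was 0.22 (unadjusted 0.021). The difference was 0.32 (adjusted p = 0.22) without the 3 arrays of short transcripts. It turned to -0.36 ± 0.19 (SE, adjusted p = 0.96) with the macrophage marker mean as a covariate, a score that does not overlap between the groups and so cannot be told apart from them. With the fibroblast markers as a covariate, a score with the same limit, the difference was 0.52 ± 0.19 (SE, adjusted p = 0.26). The unadjusted p lay under 0.05 for 14.4% of all probe sets, so passing that threshold, as Pdgfa did, was not rare in this table.

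Pdgfc and Pdgfd, the chains that need activation outside the cell, had mean signals less than 1 log2 unit over the table's minimum, as did 59.0% of all probe sets. Pdgfc had 5.60, 5.69 and 5.74 (lowest, median and highest) in A-CRF and 5.65, 5.69 and 5.71 in Control. Pdgfd had 5.13, 5.20 and 5.24 in A-CRF and 5.14, 5.19 and 5.21 in Control. For both the groups overlapped, and the A-CRF values of Pdgfc reached past both ends of the Control range. The changes were -0.0035 ± 0.02 log2 units (SE, 95% interval -0.05 to 0.05, limma adjusted p = 0.98) for Pdgfc and 0.02 ± 0.02 (-0.02 to 0.06, adjusted p = 0.78) for Pdgfd. The difference of Pdgfc minus Pdgfd on each array moved by -0.02 between the groups (exact permutation test over 3003 arrangements, two-sided, p = 0.36, adjusted over the 2 pairs tested 0.36).

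**Figure D1:**
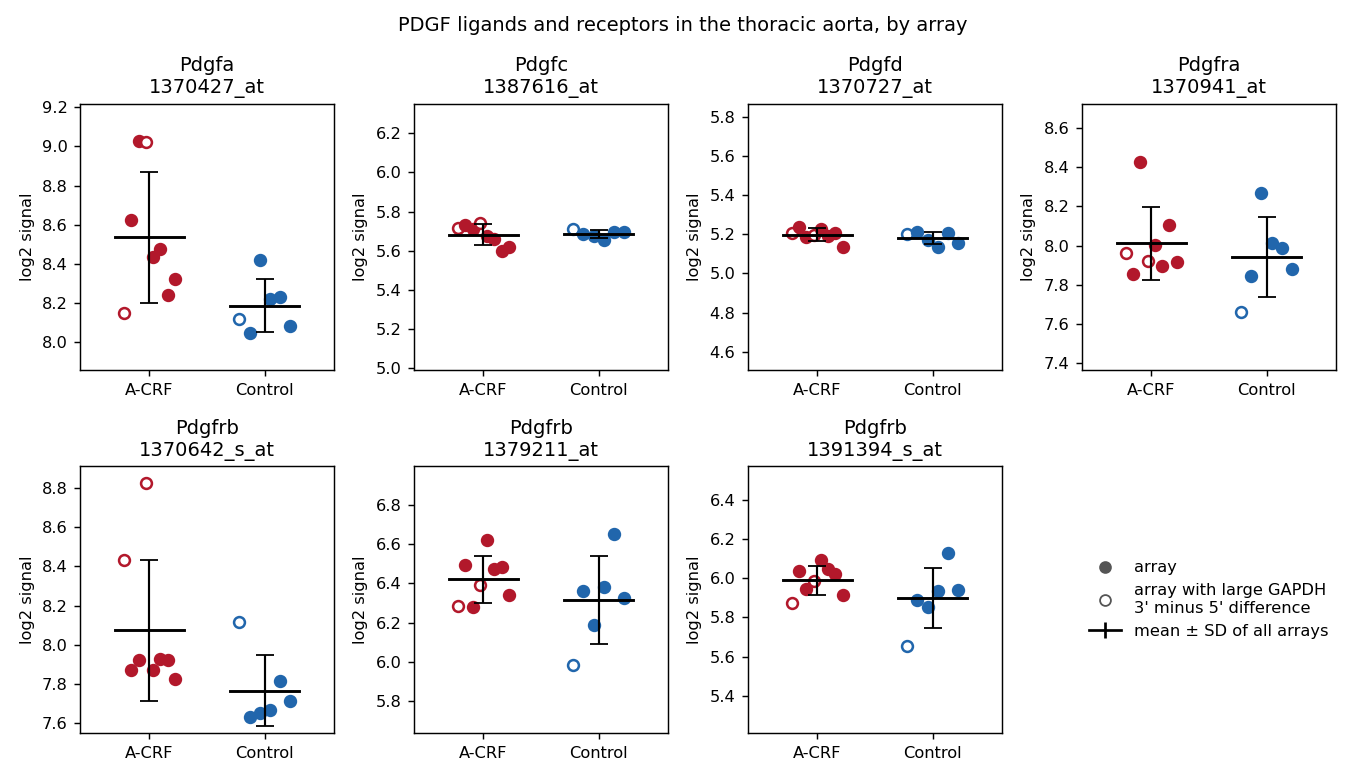
Log2 signal on each array for the 7 probe sets of 5 PDGF genes, A-CRF (red, n = 8) and Control (blue, n = 6), with the mean and SD of all arrays as black bars and open points for the 3 arrays with a large GAPDH 3' minus 5' difference. Every panel spans the same number of log2 units around its own middle. Pdgfa reaches 9.03 in A-CRF against at most 8.42 in Control, Pdgfc and Pdgfd are flat, and the 3 open points are the highest of their groups for the first Pdgfrb probe set.

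Among the receptors, Pdgfra, which binds all PDGF chains except PDGF-D homodimers, had log2 signals of 7.85, 7.94 and 8.43 in A-CRF (lowest, median and highest) and 7.66, 7.94 and 8.27 in Control. The groups overlapped almost whole. A-CRF 3 was highest in its group and Control 3 in its own, and Control 1 was the lowest array of all. The A-CRF mean was 8.01 ± 0.19 (SD, n = 8) and the Control mean 7.94 ± 0.20 (SD, n = 6). The difference was 0.07 ± 0.10 log2 units (SE, limma adjusted p = 0.86), with a 95% interval of -0.14 to 0.28, so a change larger than 1.21-fold in the upward direction lay outside it. The difference was 0.0080 without A-CRF 3, 0.011 without Control 1 and 0.13 without Control 3, the lowest and highest of the 14 fits without 1 array among them.

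Pdgfrb, the receptor of smooth muscle and pericytes, is represented by probe set 1370642_s_at, the brightest of its 3. It read 7.82, 7.92 and 8.83 in A-CRF (lowest, median and highest) and 7.63, 7.69 and 8.12 in Control. The highest values of both groups were on the arrays of short transcripts, 8.83 on A-CRF 4, 8.43 on A-CRF 1 and 8.12 on Control 1. With all arrays the difference was 0.31 ± 0.15 log2 units (SE, 95% interval -0.01 to 0.63, limma adjusted p = 0.37), with an A-CRF mean of 8.08 ± 0.36 (SD, n = 8) and a Control mean of 7.77 ± 0.18 (SD, n = 6). All 8 A-CRF arrays lay above the Control median.

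Without those 3 arrays the Pdgfrb groups did not overlap. The other 6 A-CRF arrays lay between 7.82 and 7.93 and the other 5 Control arrays between 7.63 and 7.81, and 3.79% of all probe sets separated the groups in this way, 2.37% with A-CRF higher. The A-CRF mean was then 7.89 ± 0.04 (SD, n = 6) and the Control mean 7.70 ± 0.07 (SD, n = 5). Pdgfrb rose by 0.19 ± 0.03 log2 units (SE, limma adjusted p = 0.016), a 1.14-fold difference, where 2.89% of all probe sets were called (1.82% higher and 1.08% lower). With the GAPDH difference as a covariate on all 14 arrays it rose by 0.27 ± 0.07 (adjusted p = 0.043), and 3.35% of probe sets were called (1.98% higher and 1.38% lower). When each of the 11 arrays was also left out in turn, the rise lay between 0.18 and 0.22 and the adjusted p between 0.013 and 0.043. The lowest A-CRF array, at 7.82, and the highest Control array, at 7.81, were close.

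The remaining probe sets of Pdgfrb did not pass in any of these fits. Probe set 1379211_at read 6.28, 6.43 and 6.62 in A-CRF (lowest, median and highest) against 5.98, 6.34 and 6.65 in Control, and changed by 0.11 ± 0.09 log2 units (SE, limma adjusted p = 0.67). Probe set 1391394_s_at lay between 5.88 and 6.09 in A-CRF and between 5.65 and 6.13 in Control, and changed by 0.09 ± 0.06 (adjusted p = 0.55). Both had their lowest value on Control 1, where the first probe set had its highest in that group. Without the arrays of short transcripts they changed by 0.07 ± 0.08 (adjusted p = 0.80) and 0.06 ± 0.05 (adjusted p = 0.64), with the same sign as the first and no call. The call for Pdgfrb therefore rests on 1 of its 3 probe sets, whose ID ending marks it as able to match several transcripts.

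**Figure D2:**
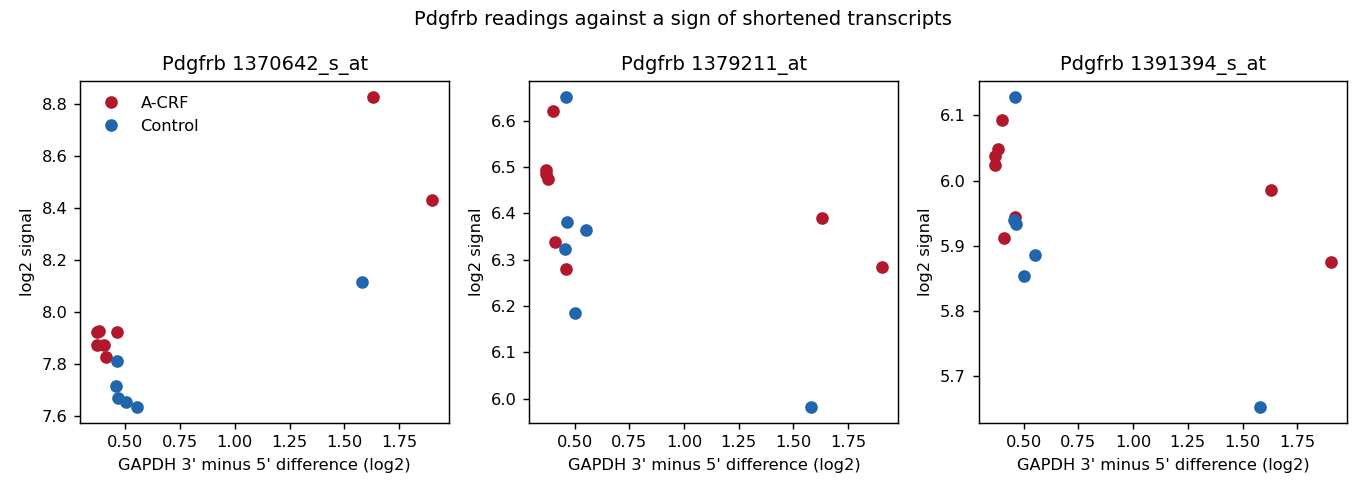
Log2 signal of the 3 Pdgfrb probe sets (vertical axes, each with its own scale) against the GAPDH 3' minus 5' difference of the array in log2 units (horizontal axes), A-CRF in red (n = 8) and Control in blue (n = 6). The 3 arrays at 1.58 or more are the highest of their groups in the left panel, and left of them the A-CRF points (7.82 to 7.93) lie above the Control points (7.63 to 7.81).

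**Figure D3:**
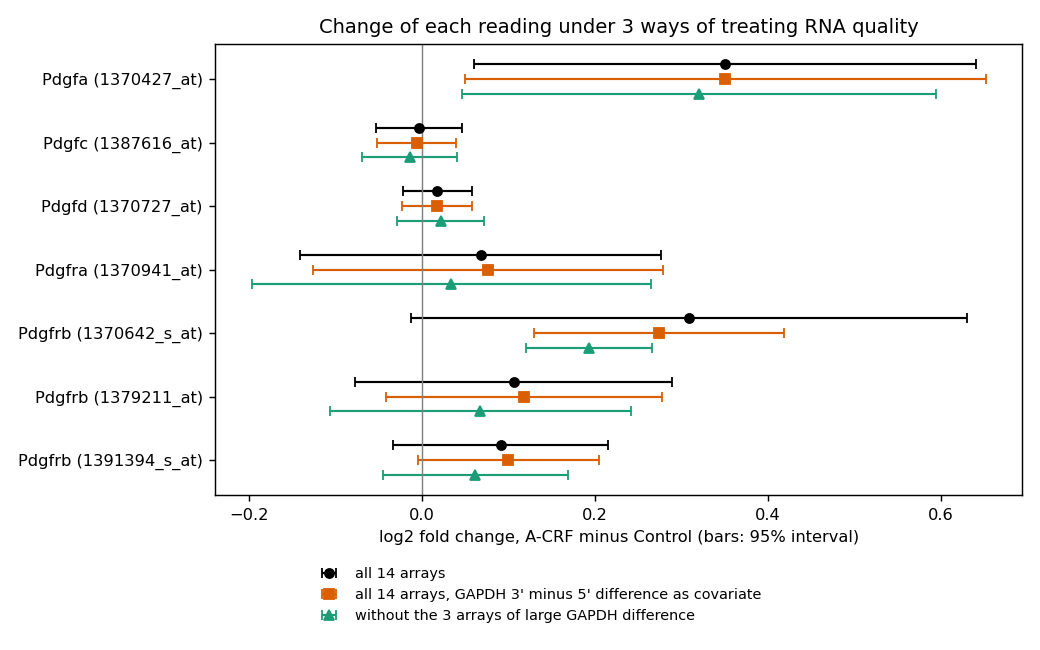
Log2 fold change of A-CRF minus Control for each PDGF probe set, with its 95% interval, from all 14 arrays (black circles), with the GAPDH difference as a covariate (orange squares) and without the 3 arrays of short transcripts (green triangles). The interval of Pdgfrb 1370642_s_at spans 0 in the first and not in the other 2, and the estimate of Pdgfa stays between 0.32 and 0.35.

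The receptors were not shown to differ from each other in response. The difference of Pdgfra minus Pdgfrb on each array averaged -0.06 ± 0.44 over the 8 A-CRF arrays and 0.18 ± 0.35 over the 6 Control arrays (SD), a shift of -0.24 (exact permutation test, two-sided, p = 0.29, adjusted over the 2 pairs tested 0.36). Without the 3 arrays it averaged 0.14 ± 0.20 over 6 A-CRF arrays and 0.30 ± 0.19 over 5 Control arrays, a shift of -0.16 (exact permutation test, p = 0.22, adjusted 0.22). Signals of different probe sets cannot be set against each other as levels, so only these shifts are compared.

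Of 6 measured genes for proteases that process PDGFs, 3 rose, 0 fell and 3 did not pass, with a median change of 0.21 log2 units, against 1.26% of all probe sets higher and a median of -0.0020 over all. Among genes counted by their brightest probe set 1.93% were higher and 1.06% lower. The protease list was chosen with earlier results of these data known, so its count is not independent support. Pcsk5, a proprotein convertase, had 8.31, 8.59 and 8.99 in A-CRF (lowest, median and highest) and 7.58, 7.89 and 8.14 in Control. All 8 A-CRF arrays lay above all 6 Control arrays, as 0.944% of all probe sets did, while 1.38% separated the groups in either direction. The rise was 0.67 ± 0.11 log2 units (SE, 1.59-fold, limma adjusted p = 0.0091). A second Pcsk5 probe set rose by 0.59 (adjusted p = 0.028), and the third, near the lowest signal, changed by 0.0040.

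Plat, tissue plasminogen activator, which releases active PDGF-C, had 8.29, 8.72 and 9.23 in A-CRF and 7.84, 8.10 and 8.31 in Control. The groups overlapped only through A-CRF 7, which lay just under Control 2, and the rise was 0.65 ± 0.12 (SE, 1.57-fold, limma adjusted p = 0.014). Plau, the urokinase that releases active PDGF-D, had 6.18, 6.31 and 6.45 in A-CRF and 5.95, 6.04 and 6.08 in Control. Its groups did not overlap, and 0.944% of all probe sets separated in this way with A-CRF higher. Plau rose by 0.29 ± 0.04 (SE, 1.23-fold, limma adjusted p = 0.0035), and its weaker second probe set changed by 0.07 (adjusted p = 0.27). Furin, Pcsk6 and the membrane protease St14 did not pass, at 0.04, 0.04 and 0.12. All 3 kept their limma call whichever single array was dropped (14 fits), and also without the 3 arrays of short transcripts, but Plat lost its call in the exact rank-sum test (adjusted p = 0.064). With the macrophage or the fibroblast markers as a covariate 0 of the 6 genes were called in limma. Neither marker score overlaps between the groups, so these covariates and the group cannot be told apart.

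**Figure D4:**
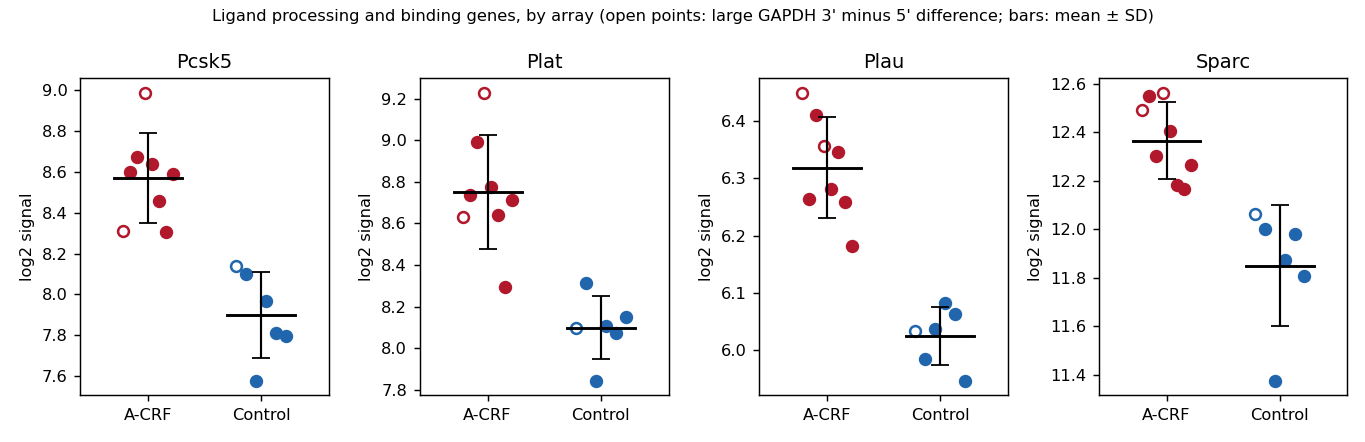
Log2 signal of Pcsk5, Plat, Plau and Sparc on each array (vertical axes, each with its own scale), A-CRF in red (n = 8) and Control in blue (n = 6), with the mean and SD in black and open points for the 3 arrays with a large GAPDH difference. All A-CRF points lie above the Control points except for Plat on A-CRF 7, at 8.29 under a Control maximum of 8.31.

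Of 6 proteins that bind PDGFs or act as co-receptors, 1 rose, 0 fell and 5 did not pass (median 0.16). Sparc, a matrix protein that binds the PDGF-B chain, had 12.17, 12.35 and 12.56 in A-CRF and 11.38, 11.93 and 12.06 in Control. The groups did not overlap, and it rose by 0.52 ± 0.10 log2 units (SE, 1.43-fold, limma adjusted p = 0.020), while its other probe set rose by 0.86 (adjusted p = 0.0049). Without the 3 arrays of short transcripts Sparc rose by 0.50 (adjusted p = 0.035). Lrp1, an endocytic receptor that restrains Pdgfrb in mouse smooth muscle, was 1.32-fold higher at 9.22, 9.28 and 9.73 in A-CRF against 8.41, 9.08 and 9.14 in Control, with no overlap. Of all probe sets, 0.944% separated the groups with A-CRF higher, as Sparc and Lrp1 did. Lrp1 did not pass with all arrays (limma adjusted p = 0.11) or without the 3 arrays (adjusted p = 0.16), but passed with the GAPDH covariate (adjusted p = 0.047). It was singled out after its values were seen, as was Pdgfrl, a receptor-like protein, at 0.22 ± 0.08 (adjusted p = 0.21).

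Of 5 other ligands of the PDGF/VEGF family 0 passed (median -0.04), with Pgf, placental growth factor, at -0.10 ± 0.05 (SE, limma adjusted p = 0.47) and the lymphatic growth factor Vegfc at 0.09 ± 0.10 (adjusted p = 0.79). At an unadjusted p under 0.05 none of these 5 passed either. Of 3 other class III receptor tyrosine kinases, 1 rose. This was Csf1r, the macrophage growth factor receptor, at 7.24, 7.38 and 7.76 in A-CRF and 6.79, 7.01 and 7.16 in Control, a rise of 0.44 ± 0.09 (adjusted p = 0.020), and of 0.44 (adjusted p = 0.027) without the 3 arrays. It is itself one of the macrophage markers named above. Kit and Flt3, the receptors of mast and progenitor cells, read near the lowest signal.

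Downstream of the receptors few transcripts were called, and over all genes at 1 probe set each the share called was 2.99%. For lists of 15 to 19 genes, 0 called is near that share. An unadjusted p under 0.05 in limma was reached by 14.4% of all probe sets. Of 19 adaptors, kinases and other proteins that act next to the receptor, 0 passed in limma (0 higher and 2 lower at an unadjusted p under 0.05), with Pik3ca, a PI3K catalytic subunit, at -0.11 ± 0.05 and its regulatory partner Pik3r1 at -0.11 ± 0.16. Another Pik3ca probe set, 1 of 5 beside the brightest, fell by 0.20 (adjusted p = 0.039). Of 15 effectors of the Ras-MAPK, PI3K-Akt and STAT pathways 0 passed (1 higher and 0 lower unadjusted), with Stat3 at 0.20 ± 0.11 and the small GTPase Nras at 0.16 ± 0.05. Nras rose by 0.17 (adjusted p = 0.030) without the 3 arrays of short transcripts and by 0.18 (adjusted p = 0.034) without A-CRF 1 alone. Its dimmer second probe set changed by 0.06 with all arrays (adjusted p = 0.45). Of 16 genes that attenuate receptor signals 0 passed (4 higher and 1 lower unadjusted). The phosphatase Ptpn2, which dephosphorylates Pdgfrb in mouse cells, was at 0.21 ± 0.05 (adjusted p = 0.066, but 0.037 without the 3 arrays and 0.014 without A-CRF 1 alone), and the receptor phosphatase Ptprj at -0.23 ± 0.10. A second, dim probe set of Ptpn2 changed by -0.02.

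Among 18 immediate early genes, which PDGF and many other stimuli induce, 1 rose, 0 fell and 17 did not pass (median 0.13). Egr1 had 7.73, 8.25 and 10.21 in A-CRF and 6.78, 7.10 and 7.41 in Control. Its groups did not overlap, and 0.944% of all probe sets separated in this way with A-CRF higher. Egr1 rose by 1.58 ± 0.36 log2 units (SE, limma adjusted p = 0.037). Its call was lost in 9 of the 14 fits without 1 array, when array 4, 5 or 7 of A-CRF or any single Control array was dropped (highest adjusted p = 0.083), and in the fit without the 3 arrays of short transcripts (adjusted p = 0.0504). A-CRF 3, A-CRF 4 and A-CRF 7 were the highest for Egr1, at 10.21, 9.51 and 9.44. The first of them is also the highest array for Pdgfa and Pdgfra, and A-CRF 4 was second highest for Pdgfa. A-CRF 7 was second lowest of its group for Pdgfa and second highest for Pdgfra. Deviations of Egr1 from its group means had a Pearson r of 0.67 with Pdgfa, 0.62 with Pdgfra and 0.12 with Pdgfrb over 14 arrays. Over the 11 arrays without short transcripts r was 0.52, 0.84 and 0.14. These values carry no test.

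Of 20 other growth factors and receptors of smooth muscle and fibroblasts 1 rose, 0 fell and 19 did not pass (median 0.0094). Fgfr1, a receptor for fibroblast growth factors, was 1.26-fold higher at 9.14, 9.21 and 9.57 in A-CRF against 8.71, 8.96 and 9.07 in Control (limma adjusted p = 0.029). Its call was lost in 6 fits, namely when array 2 or 5 of A-CRF, or array 2, 3, 5 or 6 of Control, was dropped (highest adjusted p = 0.074). Without the 3 arrays of short transcripts it rose by 0.33 (adjusted p = 0.020). With all arrays a second, dimmer Fgfr1 probe set changed by 0.20 and did not pass (limma adjusted p = 0.23). Over the pathway lists together, 7 of 108 distinct genes were called, all 7 higher. Of all genes counted by their brightest probe set, 1.93% were called higher and 2.99% in either direction. These lists were chosen with earlier results of these data known.

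**Figure D5:**
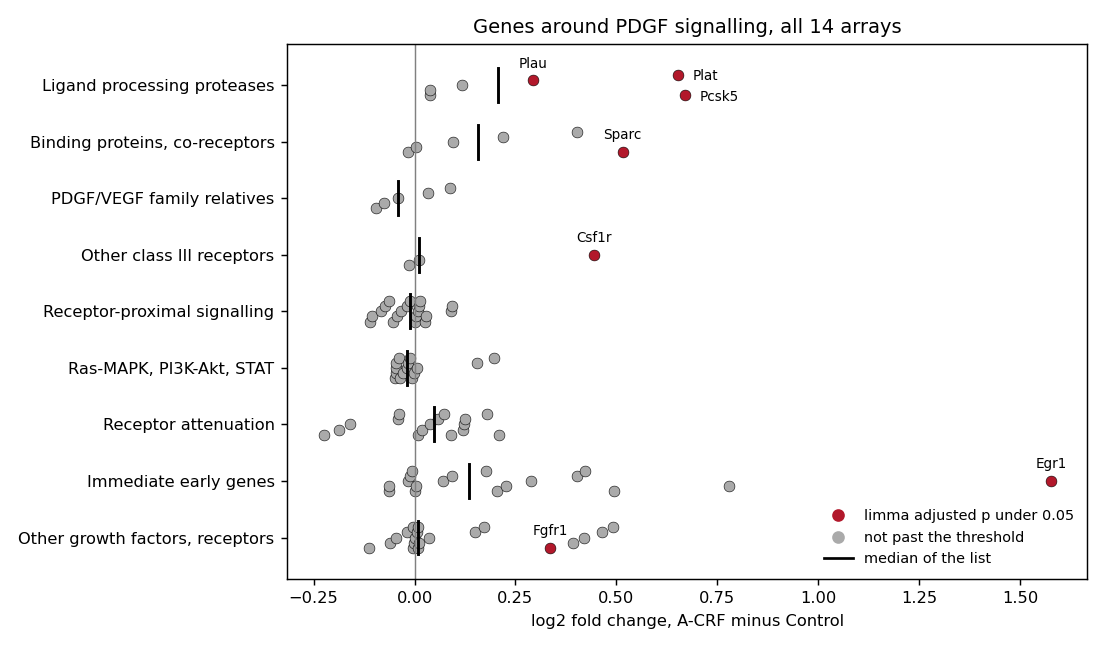
Log2 fold change of A-CRF minus Control for each measured gene of 9 lists around PDGF signalling, from all 14 arrays, in red where the limma adjusted p is under 0.05, with the median of each list as a black line. The 7 named points are the called genes, and the protease list holds 3 of them.

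Markers of cells known to release PDGF, and of other cell types, were also examined. Of 6 measured platelet markers 0 passed, and in the Control mean 2 exceeded the table's minimum by more than 1 log2 unit, with a list mean of 5.82 to 5.91 in A-CRF and 5.79 to 5.90 in Control. The chemokine Pf4 was at 0.22 ± 0.08 (SE, limma adjusted p = 0.17, but 0.037 without Control 4) and Ppbp at 0.02 ± 0.03 (adjusted p = 0.82). Of 9 endothelial markers 0 passed, with Vwf at 0.40 ± 0.14 and Kdr at -0.20 ± 0.10. Of 6 pericyte markers 0 passed (median 0.011), with Rgs5 at 0.19 ± 0.14 and Cspg4 at 0.10 ± 0.10. The other pericyte markers were Kcnj8 at 0.02, Notch3 at -0.0019, Anpep at -0.04 and Abcc9 at -0.07. The fibroblast collagens Col1a1 and Col1a2 were at 0.67 ± 0.22 and 0.31 ± 0.10 (adjusted p = 0.14 for each), the largest changes of that list (median 0.089). Its other markers ran from -0.18 for Gsn to 0.19 for Col3a1, with Dpt at 0.0017, Pi16 at 0.02, Dcn at 0.05 and Lum at 0.09. Adipocyte markers had a median of -0.21 with none called, and ran from -0.49 ± 0.27 for Cidec and -0.47 ± 0.33 for Fabp4 to 0.38 ± 0.29 for Cfd (SE). Of 4 Schwann cell and 5 mesothelial markers none passed, with S100b at 0.25, Mbp at -0.17, Upk1b at 0.07 and Msln at 0.05. Macrophage markers that rose included Adgre1 (0.53 ± 0.07), C1qa (0.65 ± 0.09), Ctss (0.65 ± 0.09), Fcgr1a (0.22 ± 0.04) and Cd68 (0.42 ± 0.07).

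The genes whose deviations from the group means ran most like those of a member over the 14 arrays were different for each. For Pdgfa they were the carboxypeptidase Scpep1, Lxn and the metalloproteinase inhibitor Timp1, at Pearson r of 0.94, 0.94 and 0.92. Over the 11 arrays without short transcripts their r with Pdgfa was 0.95, 0.89 and 0.91. Scpep1 rose by 0.55 ± 0.09 log2 units (SE, limma adjusted p = 0.0089). For Pdgfra they were Pir, the immediate early gene Ier3 and Marcks, at 0.93, 0.93 and 0.90, with 0.97, 0.93 and 0.90 over the 11 arrays. For Pdgfrb they were Lmf2, Sgsm2 and Pcnx3, at 0.98, 0.97 and 0.97, but over the 11 arrays their r with Pdgfrb was 0.42, 0.73 and 0.58. The likeness of Pdgfrb over all arrays was thus lower once the 3 arrays of short transcripts were left out. These values describe few arrays, which differ in the GAPDH 3' minus 5' difference, and carry no test.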

How the data were processed

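Per the labels' protocols, RNA of aortas preserved in RNAlater was reverse transcribed from oligo-dT, which favours the 3' end, amplified with biotin and measured on Affymetrix arrays. The values deposited by the authors are log2 probe set signals. PLIER is named in the submitters' processing notes, background correction, normalization and offset are not stated there, and the log base was inferred from the range of 4.82 to 12.64. From 31099 probe sets 57 control probe sets were left out. Of the rest, 20826 had 1 gene symbol, 436 several and 9780 none. The brightest probe set over all arrays represents a gene.

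Group differences were fitted with limma 3.58.1 in R 4.3.3 (lmFit and eBayes, group as the only factor, two-sided, Benjamini-Hochberg over all probe sets), which was tested on simulated data. SE and 95% intervals are moderated. Differences between paired members were tested by exact permutation of the group labels, and 1 of the 3 pairs planned was not tested because Pdgfb was not analysed. Arrays have no sequencing depth, so their number limits the precision.

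The members and gene lists were chosen with earlier results of these data known. Named genes were all members, up to 6 genes past the threshold in each list or else the 2 with the largest change, Egr1, and the 3 genes most like each member above the lowest signal by over 1 log2 unit. Other names were chosen after their values were seen. List symbols were updated through RefSeq synonyms. Likeness is the Pearson correlation of deviations from group means among genes above the median signal. Alternatives are given in the closing section.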

Additional observations from a re-analysis of the deposited data

Results flagged for a closer look

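By a test for a single far value, 4 values stood apart among 40 groups of arrays tested, and chance alone flags about 5% of groups. Pdgfrb (1370642_s_at) on Control 1 was 8.12, against 7.63 to 7.81 on the other Control arrays. Pdgfra on A-CRF 3 was 8.43, against 7.85 to 8.11 on the other A-CRF arrays. Fgfr1 on A-CRF 4 was 9.57, against 9.14 to 9.34 on the other A-CRF arrays. Sparc on Control 3 was 11.38, against 11.81 to 12.06 on the other Control arrays. Control 1 and A-CRF 4 are 2 of the 3 arrays with a large GAPDH 3' minus 5' difference.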

How the results depend on the processing

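Of the members, Pdgfrb changed its call. It passed with the GAPDH covariate (0.27) and without the 3 arrays of largest GAPDH difference (0.19), and in none of the 14 fits that left out 1 array (0.20 to 0.38). It was 0.11 when both of its probe sets that can match several transcripts were dropped, and 0.22 with array weights. Pdgfa, Pdgfc, Pdgfd and Pdgfra passed in no alternative. Pdgfa ranged from 0.28 to 0.41 without single arrays and was 0.31 with the clock gene covariate. It was 0.46 without the A-CRF arrays whose clock score exceeded 0. Pdgfra ranged from 0.0080 to 0.13. Pdgfc, which lay near 0, ranged from -0.012 to 0.0084 without single arrays and was 0.0298 without the A-CRF arrays whose clock score exceeded 0. Pdgfd could not be fitted where dim probe sets were left out. With macrophage markers as a covariate, added after the data were seen, Pdgfa was -0.36, Pdgfc -0.087, Pdgfra -0.0765 and Pdgfrb -0.0530, and 0 probe sets were called in limma over the table (1467 at an unadjusted p under 0.05). With fibroblast markers, also added, 98 were called and Pdgfa was 0.52. The pathway lists and the proteases had 0 genes called with either covariate. The count of called probe sets, 636, was 1457 with array weights, 1041 with the GAPDH covariate, 323 with the clock gene covariate and 307 to 979 without single arrays. It moved by over 1.5 times without A-CRF 1, 3 or 5 or Control 2, 4, 5 or 6. The 7 called pathway genes became 13 with array weights, 11 with the GAPDH covariate and 5 to 13 without single arrays, 13 without A-CRF 1. Pik3r1 was 0.0051 with the clock gene covariate, and Ptpn2 -0.0224 without such multi-transcript probe sets. Plat lost its call in the exact rank-sum test (adjusted p = 0.064). The cause of these shifts was not tested. No paired analysis was possible because the labels give no shared replicate numbers. Precision is limited by 8 and 6 arrays and, for Pdgfc and Pdgfd, the signals lay near the lowest value.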

Other observations

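A receptor and a ligand of other growth signals, singled out after their values were seen, passed when the 3 arrays of short transcripts were left out and not in the fit of group alone on all arrays. Tgfbr1, a receptor for TGF-beta, was 1.31-fold higher averaging 8.57 ± 0.24 over the 8 A-CRF arrays and 8.18 ± 0.11 over the 6 Control arrays (SD), with a limma adjusted p of 0.060 on all arrays and 0.020 without the 3 arrays of short transcripts, and 0.016 on all arrays with the GAPDH covariate. Fgf1, a ligand of Fgfr1, was 1.41-fold higher at 6.85 ± 0.33 in A-CRF and 6.36 ± 0.14 in Control, with an adjusted p of 0.078 on all arrays and 0.021 without those arrays, and 0.066 with that covariate.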
